A study of Mus musculus with 44 samples.

Results

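The RNAs described here are those whose level in C2C12 cells fell between day 3 and day 6 of differentiation, after the main change of the first days. C2C12 is a mouse myoblast line, grown in 10% serum (day 0) and induced to differentiate by a switch to 2% horse serum. Members were chosen on input RNA, that is, RNA of these cells without any pulldown, after the log2 signals of the 15 input arrays had been quantile-normalized. A probe became a member if its detection p-value was under 0.05 on all 5 day 3 arrays, its day 6 mean lay 0.4 log2 units or more below its day 3 mean, and its day 3 mean minus day 0 mean was above -1.5. This rule gave 206 members among the 25697 probes of the array, or 1.98% of the 10413 probes that were detected on all 5 day 3 arrays. They were divided by what came first: 72 members had risen by 0.4 or more from day 0 to day 3 (called raised), 72 had moved by less than 0.4 (level), and 62 had already fallen by 0.4 or more (steady decline).

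The series set AUF1 pulldowns beside control IgG pulldowns and input RNA, all from C2C12 cells with no genetic change named in the labels. Lysates were incubated with beads that carried an antibody against AUF1 or control IgG, and the RNA that came down was measured on Illumina bead arrays. There were 4, 3, 3 and 4 AUF1 arrays and 4, 3, 4 and 4 IgG arrays from days 0, 2, 4 and 6, and 5 input arrays from each of days 0, 3 and 6, or 44 arrays in all. Pulldown was thus never measured on day 3, and input was never measured on day 2 or day 4. The labels do not say that arrays of a group came from separate cultures, so the tests measure the spread between arrays, which may be technical. Input samples carry the word DNA in their titles but RNA in their other labels, and were taken as RNA.

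When serum is withdrawn, myoblasts leave the cell cycle, switch on a myogenic programme in waves and fuse into myotubes, so an RNA can rise early and fall later, fall throughout, or hold its level before it falls. AUF1, also named HNRNPD, is an RNA-binding protein known for binding AU-rich elements of messenger RNAs and for acting on their stability and translation. The array names its probes by Illumina identifier alone, and none of the 25697 identifiers matched the gene table at hand (0 matched). Genes, gene lists, cell type markers and probe sequences are therefore not analysed here, the labelled cell type was not checked against its markers, and the probes below are named by identifier.

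The share of probes detected on an array ran from 44.7% to 48.7% on input arrays (median 47.1%), from 25.6% to 46.8% on IgG arrays (43.5%) and from 24.4% to 45.5% on AUF1 arrays (35.9%). On 5 pulldown arrays under 30% of probes were detected, and 4 of these were AUF1 arrays (experiment 2 of day 0, experiments 1 and 2 of day 2, and experiment 3 of day 4). The fifth was the IgG array of experiment 2 on day 4. No AUF1 array of day 6 was among them.

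In input RNA the late fall was modest and similar in size in the 3 classes. These values chose the members and are given as a description, with no test. Over the 206 members the day 6 mean lay a median 0.50 log2 units below the day 3 mean, a 1.41-fold lower signal, with a range from -1.19 to -0.40. The median fell by 0.54 in the raised class, by 0.48 in the level class and by 0.47 in the steady decline class, against -0.01 over all 10413 detected probes. Only 4 members fell by 1 log2 unit or more and 53 by 0.6 or more, while 105 fell by less than 0.5. Falls after day 3 were not commoner than rises: 222 of the 10413 probes fell by 0.4 or more, among them 16 left out because they had already fallen by 1.5 or more before day 3, and 292 rose by 0.4 or more. The members had a median percentile of 71.8 of the day 3 level among detected probes, with 92 above the 75th percentile and 2 under the 25th. The rule used log2 signals without background correction, on which a probe near the lowest levels has little room to fall by 0.4. Nothing is therefore read from these percentiles. Just inside the limit lay ILMN_2681670 at -0.4002 and ILMN_1237725 at -0.4004, and just outside it ILMN_1213975 at -0.3973 and ILMN_1239087 at -0.3969. At the other limit, ILMN_2879746, with -1.428 from day 0 to day 3, was inside and ILMN_2980663, with -1.633, was outside.

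**Figure D1:**
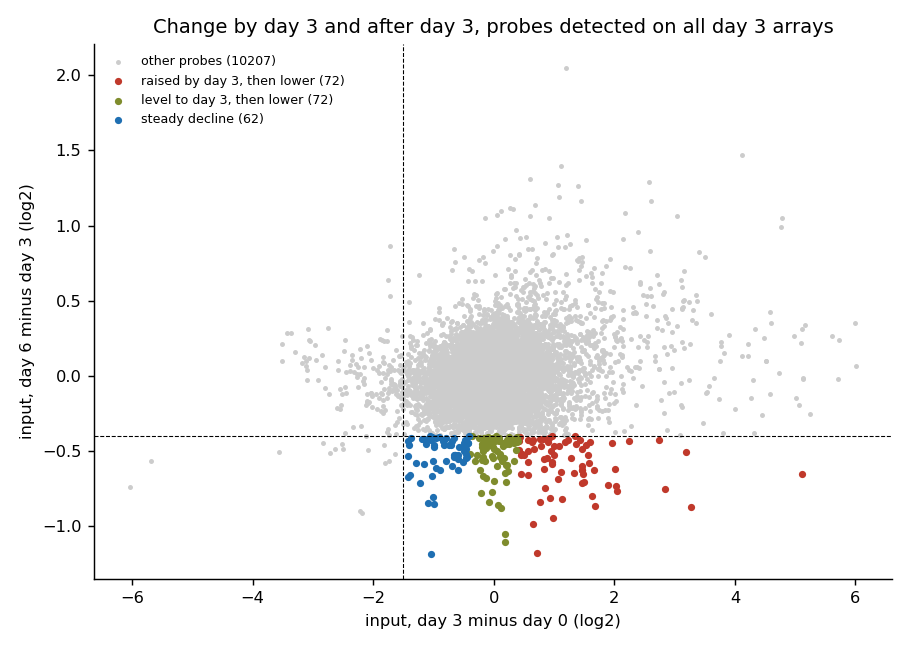
Change of each probe in input RNA from day 0 to day 3 (x axis, log2) against its change from day 3 to day 6 (y axis, log2) for the 10413 probes detected on all 5 day 3 arrays. Members (72 raised, 72 level, 62 steady decline, coloured) lie under the dashed line at -0.4 and to the right of the dashed line at -1.5; grey points are the other probes.

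The raised class held RNAs that peaked on day 3 among the 3 days measured. Its median level (log2 signal) was 7.75 at the start, 9.02 on day 3 and 8.40 at the end. The rise to day 3 had a median of 1.03 and reached 5.11. By day 6 a median 49.1% of that rise had been lost, with a range from 12.8% to 166%. Of the 72 members 37 lost less than 50% of their rise and 12 lost more than all of it. On day 6, 60 of the 72 still lay above their day 0 mean, 41 of them by 0.4 or more. So most of these transients were partial within the 6 days. On day 0, 10 of the 72 were not detected on every array, and 2 of these on none, whereas all 72 were detected on every day 6 array. All 5 day 3 arrays lay above all 5 day 0 arrays for 42 of the 72 (14.1% of the detected probes). The class limit used this contrast, so nothing is read from the difference.

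The class limits place the level and steady decline classes below their day 0 level by day 6, so only the size of that difference is informative. The level class had a median of 8.5 on both day 0 and day 3 and of 7.91 on day 6, and its day 6 mean was 0.4 or more below its day 0 mean in 48 of 72. Medians of the steady decline class were 9.36, 8.48 and 7.95 on the 3 days, so the fall before day 3, a median of -0.84, was larger than the fall after it, -0.47. From day 0 to day 6 this class fell by a median of 1.30. All 5 day 6 arrays lay under all 5 day 0 arrays for 58 of its 62 members (16.3% of the detected probes). The class was chosen by its falls on both steps, so nothing is read from that difference either.

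**Figure D2:**
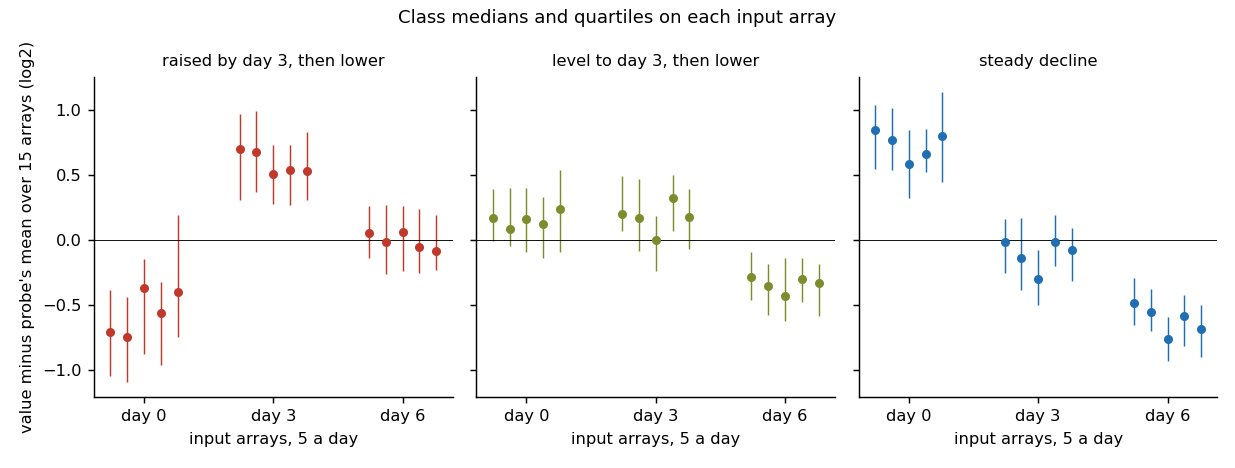
For each input array, the median (point) and quartiles (bar) over the members of a class of the log2 signal minus the probe's mean over the 15 input arrays. The raised class peaks on day 3, with array medians from 0.505 to 0.701, the level class drops on day 6, and the steady decline class steps down on each day.

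Spread between arrays was large beside falls of this size. The median SD of the members was 0.31 on day 3 and 0.26 on day 6, against 0.20 and 0.18 for all detected probes. The day 6 and day 3 arrays did not overlap for 61 of the 206 members (29.6%), 22 raised, 19 level and 20 steady decline (1.3% of the detected probes); the rule used this contrast, so nothing is read from the difference. The limma fit of the same contrast called 4 of 13750 probes lower (0.0291%), all of them members, which is no test of the members and is given for the share alone.

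The fall appeared in each consecutive pair of array numbers, which the column names give in runs of day 0, day 3 and day 6. Array 35 lay below array 34 for 200 of 206 members, 38 below 37 for 194, 41 below 40 for 192, 44 below 43 for 197 and 47 below 46 for 202. The median differences were -0.51, -0.52, -0.47, -0.58 and -0.56. These pairs took part in choosing the members, so this describes how evenly the fall was spread and does not test it. The input arrays of a day carried only 4 experiment numbers. Arrays 33 and 36 were both experiment 1, 37 and 40 both experiment 2, and 41 and 44 both experiment 3. The pair of 40 and 41 thus joined experiment 2 with experiment 3. Whether arrays of the same day and number are repeats of 1 experiment is not stated in the labels. Day 3 array 40 was the lowest of its day for 69 of the 206 members, against 2184 of 10413 detected probes, and leaving it out raised the number of members to 299, with 188 shared. Day 6 array 41 was the lowest of its day for 75 members, against 2807 of the 10413.

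Input arrays also fell into 2 runs of array numbers, 33 to 38 and 39 to 47, a division noticed in the values and not named in the labels. On day 3 the arrays of the lower run lay wholly above or wholly below the others for 110 of the 206 members (53.4%), and for 43.1% of all detected probes. They did so in the same direction on both day 3 and day 6 for 54 members (26.2%), against 17.7% of detected probes. Within the lower run the members' median fall was -0.50, with 200 of 206 below 0, and within the higher run it was -0.52, with 206 of 206 below 0. The limit of -0.4 was met in both runs by 77 members, in the lower run alone by 54 and in the higher run alone by 75.

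The deepest falls of each class show these patterns array by array, always in the order of array numbers. ILMN_2714031, a steady decline member with the deepest fall of all, read 12.32, 12.37, 11.22, 11.93 and 11.70 on day 0, then 11.24, 11.11, 9.80, 11.24 and 10.95 on day 3, then 9.67, 9.74, 9.48, 9.75 and 9.75 on day 6. Every day 6 array lay under every day 3 array, and array 40 (9.80) stood well below the other day 3 arrays. ILMN_2790357, also of steady decline, read 9.26, 9.22, 8.01, 9.10 and 10.42 on day 0, 8.28, 7.92, 7.61, 8.90 and 8.31 on day 3, and 7.43, 6.90, 7.40, 7.60 and 7.42 on day 6. Its day 6 arrays were again all below its day 3 arrays, by only 0.01 between the closest of them (7.61 and 7.60).

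In the raised class the deepest fall was that of ILMN_2662926. It read 11.02, 10.93, 10.61, 10.25 and 11.64 on day 0, 12, 11.85, 10.59, 12 and 11.57 on day 3, and 10.90, 10.47, 10.02, 10.35 and 10.37 on day 6. Day 3 array 40 lay inside the range of the other days, and without it day 3 stood above day 6 throughout. ILMN_2909150 read 12.76, 12.72, 9.05, 11.27 and 11.50 on day 0, 12.53, 12.43, 11.33, 12.33 and 11.92 on day 3, and 10.50, 10.34, 11.68, 11.76 and 11.33 on day 6. Its day 0 values spanned a wide range (SD 1.508), its classification as raised rested on day 0 array 39 (9.05), and its day 3 and day 6 arrays overlapped.

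In the level class ILMN_2794645 read 7.94, 7.86, 7.45, 7.86 and 8.99 on day 0, 8.79, 8.32, 7.31, 8.44 and 8.16 on day 3, and 7.09, 6.74, 7.58, 7.03 and 7.07 on day 6. ILMN_2710253 read 8.22, 8.74, 7.61, 8.53 and 8.81, then 8.88, 9.0, 7.80, 8.83 and 8.35, then 7.66, 7.60, 7.46, 7.59 and 7.30. Day 6 lay wholly below day 3 for the latter, and for the former array 41 (7.58) exceeded day 3 array 40 (7.31).

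**Figure D3:**
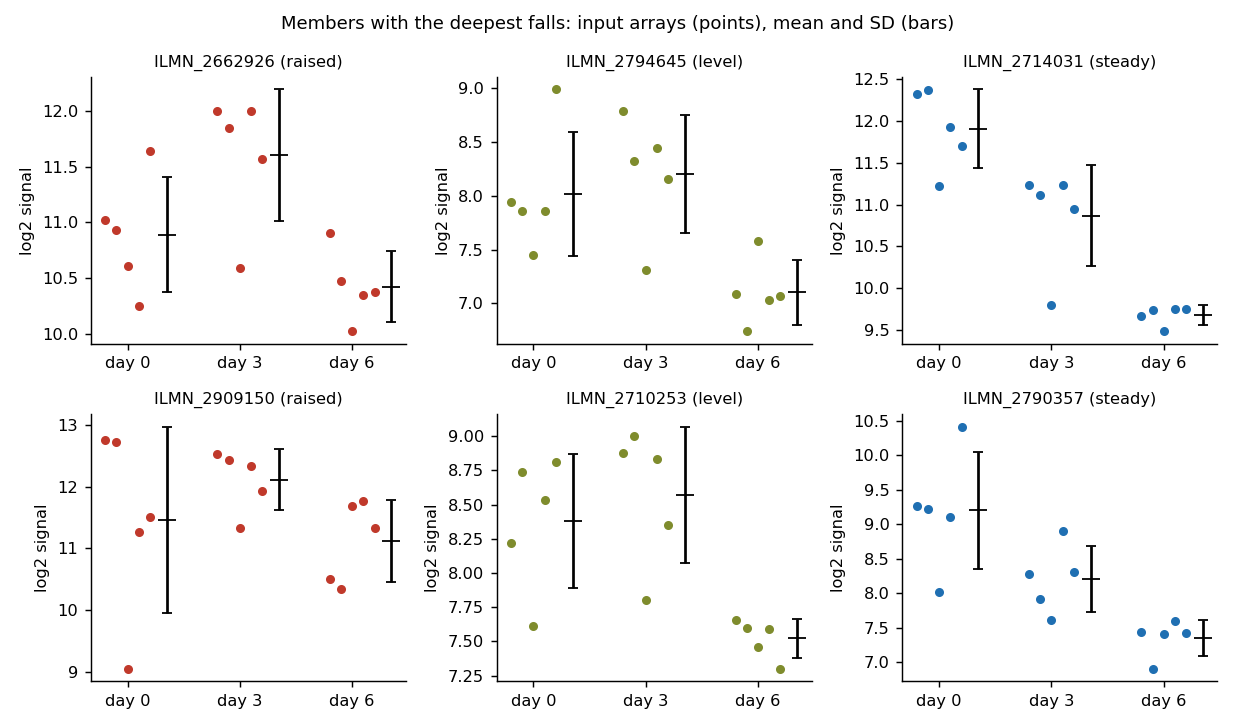
Quantile-normalized log2 signal on each of the 15 input arrays (points, in order of array number within a day) and mean with SD (bars, n = 5) for the 2 members with the deepest fall in each class. ILMN_2714031 lies between 9.80 and 11.24 on day 3 and between 9.48 and 9.75 on day 6, whereas these days overlap for ILMN_2662926, ILMN_2909150 and ILMN_2794645.

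The pulldown arrays took no part in the choice of members, so they can be tested. All 206 members passed the filter of the pulldown fit, detection on at least 3 of 29 arrays, and 113 were detected on all 29, 137 on all 15 IgG arrays and 122 on all 14 AUF1 arrays. Calls are limma calls at a Benjamini-Hochberg adjusted p under 0.05 over the 13812 probes tested. Errors after ± in the pulldown results are standard errors of the fit. Pulldown levels are log2 signals after background correction and quantile normalization over pulldown arrays, so they are not on the scale of the input levels. In these cell extracts, less of an RNA per cell and fewer cells that contain it cannot be told apart.

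Before day 6, the members' direction in pulldown followed their class with either antibody. The early change, mean of days 2 and 4 minus day 0, had a median of 0.48 with IgG and 0.35 with AUF1 in the raised class, -0.07 and -0.23 in the level class, and -0.37 and -0.35 in the steady decline class. Over all tested probes the medians were -0.01 and -0.05. With IgG, 16 members rose and 7 fell (1.5% and 0.492% of tested probes), and with AUF1, 15 rose and 14 fell (1.61% and 1.3%). Every member that rose belonged to the raised class. Of the members that fell, the raised, level and steady decline classes held 1, 3 and 3 with IgG and 3, 6 and 5 with AUF1.

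In the steady decline class 53 of 62 members lay below 0 with IgG and 50 of 62 with AUF1 (51.1% and 55.3% of tested probes). Over all classes the early change had the sign of the input change from day 0 to day 3 in 151 of 206 members with IgG (73.3%) and 144 with AUF1 (69.9%). The share with the same sign over all tested probes was not calculated. With both antibodies 13 members rose, 81.2% of those called with IgG and 86.7% of those called with AUF1. With both 5 fell, 71.4% and 35.7%. The overlap between antibodies over all called probes was not calculated, so these shares are not read as a trait of the members. After median scaling in place of quantile normalization, which shifted the median early change of all tested probes from -0.01 to -0.08 with IgG and from -0.05 to -0.44 with AUF1, 2 members rose and 1 fell with IgG (0.449% and 0.239% of tested probes), and 1 rose and 3 fell with AUF1 (0.0869% and 0.297%). Without the 5 pulldown arrays of low detection, 11 rose and 6 fell with AUF1 (1.3% and 0.641% of tested probes), and 21 rose and 12 fell with IgG (2.23% and 0.884%).

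Among the members called higher early, the largest increases in pulldown were those of ILMN_2597769 and ILMN_2638114. ILMN_2597769 read 6.64, 5.91, 6.88, 7.12 and 10.52 on day 0 in input, 13.20, 13.43, 12.15, 11.82 and 12.01 on day 3, and 12.58, 12.41, 11.43, 11.52 and 11.40 on day 6. Its IgG values, in order of experiment number, were 8.21, 8.64, 7.76 and 8.08 on day 0, 10.52, 10.82 and 10.53 on day 2, 11.52, 11.08, 11 and 11.01 on day 4, and 10.55, 11.01, 9.93 and 9.96 on day 6. Its rise was 2.71 ± 0.23 with IgG (adjusted p = 1.91e-08) and 2.45 ± 0.24 with AUF1 (adjusted p = 1.85e-07). From days 2 and 4 to day 6 it changed by -0.53 with IgG (adjusted p = 0.639) and -0.68 with AUF1 (adjusted p = 0.0811), neither past the threshold. Under median scaling its early AUF1 change was 1.49 (adjusted p = 0.182).

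ILMN_2638114 read 5.32, 7.50, 6.29 and 5.12 on IgG arrays of day 0, 9.19, 9.70 and 9.04 on day 2, 10.04, 11.31, 9.09 and 8.42 on day 4, and 8.27, 8.24, 8.51 and 7.76 on day 6. Every day 2 and day 4 array lay above every day 0 array, and day 6 lay below day 2. The early rise was 3.46 ± 0.53 with IgG (adjusted p = 0.000213) and 3.6 ± 0.55 with AUF1 (adjusted p = 0.000174). Its late changes were -1.32 and -1.74 (adjusted p = 0.581 and 0.0549). In input it read 8.95 and 8.89 on day 6 arrays 35 and 38, and 6.27, 6.13 and 6.06 on arrays 41, 44 and 47, so its mean fell from day 3 to day 6 in the higher run of array numbers only.

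Some raised members moved the other way in pulldown. ILMN_2662926, the deepest fall of that class, fell early in pulldown, by 0.94 ± 0.20 with IgG (adjusted p = 0.00759) and by 1.01 ± 0.20 with AUF1 (adjusted p = 0.00421). Its IgG means were 11.81, 10.99, 10.74 and 10.65 on days 0, 2, 4 and 6, so the level on day 6 was near that of day 4. The late change was -0.22 with IgG and 0.10 with AUF1, neither past the threshold.

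Among the members called, the largest early falls with IgG were in ILMN_2714031 and ILMN_2628178. ILMN_2714031 read 10.52, 9.5, 10.34 and 11.06 on IgG arrays of day 0, 7.83, 8.39 and 9.04 on day 2, 8.56, 8.87, 8.69 and 8.83 on day 4, and 9.79, 9.42, 8.73 and 9.91 on day 6. Day 0 lay above days 2 and 4 without overlap, and the day 6 arrays overlapped those of each earlier day. The early fall was -1.78 ± 0.36 with IgG (adjusted p = 0.0048) and -1.71 ± 0.37 with AUF1 (adjusted p = 0.00833). ILMN_2628178, of the level class, changed by -1.77 ± 0.32 with IgG (adjusted p = 0.00131) and by -1.30 ± 0.33 with AUF1 (adjusted p = 0.0254). In input the same probe stood higher on day 3 than on day 0 by 0.385, close to the class limit. Under median scaling the IgG changes of the pair were -1.95 and -1.91 (adjusted p = 0.393 and 0.226).

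The largest early falls called with AUF1 were in ILMN_2790357 and ILMN_2935157. ILMN_2790357 read 7.91, 8.32, 8.09 and 7.38 on day 0, 6.79, 4.69 and 6.38 on day 2, 6.50, 4.29 and 6.15 on day 4, and 7.52, 8.13, 7.87 and 7.02 on day 6. It was detected on 12 of 14 AUF1 arrays, and its lowest values, 4.69 and 4.29, were on arrays of low detection. The fall was -2.13 ± 0.49 (adjusted p = 0.0134), and -2.22 under median scaling (adjusted p = 0.066) and -2.07 without the day 0 array of experiment 3 (adjusted p = 0.0508). ILMN_2935157, of the level class, changed by -2.12 ± 0.32 (adjusted p = 0.000182). Its detection was limited to 9 of the 14 AUF1 arrays. Without the arrays of low detection it changed by -1.61 (adjusted p = 0.0517).

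The late fall itself was not seen as a shift of the members in pulldown. The late change, day 6 minus the mean of days 2 and 4, had a median of 0.04 over the 206 members with IgG, against 0.01 over all tested probes, and 91 of the 206 (44.2%) lay below 0. With AUF1 the median was 0.23, against 0.07 over all tested probes and 0.13 over the other probes detected on all day 3 input arrays, and 76 members (36.9%) lay below 0. Of all tested probes 48.7% lay below 0 with IgG and 43.5% with AUF1. Of the other probes detected on all day 3 input arrays, 44.6% and 39.6% did, close to the members' shares. By class the IgG medians were 0.02 raised, 0.04 level and 0.08 steady decline, and the AUF1 medians 0.09, 0.23 and 0.37. The 61 members whose input days 3 and 6 did not overlap had medians of 0.06 with IgG and 0.28 with AUF1. The windows differ: input covers day 3 to day 6, and pulldown days 2 and 4 to day 6. The sign of the small IgG median depended on the reference day. It was -0.05 against day 2 alone, with 116 members below 0, and 0.10 against day 4 alone, with 81 below 0. All tested probes had medians of 0.01 and 0.02 in these comparisons, which were added after seeing the data. Without the arrays of low detection the members' IgG median was 0, with 103 below 0.

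With IgG 0 members were called lower and 0 higher by limma (0% and 0.0434% of tested probes). At an unadjusted p under 0.05 there were 23 lower and 18 higher, 19.9% of the members. Over all 13812 tested probes there were 373 lower and 565 higher, 6.79%. The members' share was thus above that of all tested probes in each direction, and more so for lower. Their quartiles were -0.26 and 0.34, against -0.18 and 0.21 over all tested probes, a wider spread to both sides. Of the members 37 (18%) changed by -0.4 or lower, against 9.63% of tested probes. The smallest adjusted p was 0.0694, in ILMN_2909248, a steady decline member that stood 1.21 higher on day 6. With array weights 24 members were called lower and 46 higher, but so were 9.16% and 9.99% of all tested probes. With the replicate block within day 1 was lower and 1 higher (0.0145% and 0.0652%). Precision limits what can be said of a single probe: the 95% interval reached a median 0.60 to either side with IgG and 0.62 with AUF1, more than the median input fall of 0.50. With IgG the interval lay wholly above the probe's own input change for 96 of 206 members, held it for 109 and lay wholly below it for 1. With AUF1 it lay above for 113, held it for 87 and lay below for 6. The rule selected these input changes as -0.4 or lower, which favours intervals above them in advance. Nothing is therefore read from that excess. For the early change and the input change from day 0 to day 3, the IgG interval lay above for 33, held it for 123 and lay below for 50. The early AUF1 numbers were 34, 118 and 54. In simulated data 52% of probes given a log2 change of 1 were recovered in the IgG late comparison, and 48% in the AUF1 late comparison. Changes as small as the median input fall of 0.50 were not simulated, so these shares do not hold for them. The simulated arrays were also drawn independently, without the correlations between arrays of the same experiment number.

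With AUF1 10 members fell and 18 rose (3.03% and 3.9% of tested probes). Those that fell were 5 raised, 3 level and 2 steady decline members, and those that rose were 5, 6 and 7. Of those that fell 5 were detected on all 14 AUF1 arrays, and of those that rose 11. The IgG estimate had the same sign in 8 of the 10 and in 16 of the 18, with medians of -0.46 and 0.44. The share with the same sign over all probes called with AUF1 was not calculated. The test of AUF1 against IgG in the late change called 0 members and 0 of all tested probes in either direction by limma. At an unadjusted p under 0.05 it gave 24 members (11.7%), against 7.26% of all tested probes. Thus no member's late change was shown to differ between the antibodies in this fit; when a replicate block on experiment number was added within day, 3 were lower and 12 higher with AUF1 (1.05% and 1.21% of tested probes). The AUF1 days differed in detection, as 3 of the 6 arrays of days 2 and 4 were arrays of low detection and none of day 6 was. Without the 5 arrays of low detection, 4 members fell and 11 rose (1.57% and 1.61% of tested probes), and the median was 0.08. Under median scaling 0 fell and 48 rose (0.0724% and 12.1% of tested probes), and the median of all tested probes moved to 0.61 and that of the members to 1.32. With the day 6 array of experiment 1 left out 17 members were called, and with that of experiment 2 left out 18. Against day 4 alone 13 were called.

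**Figure D4:**
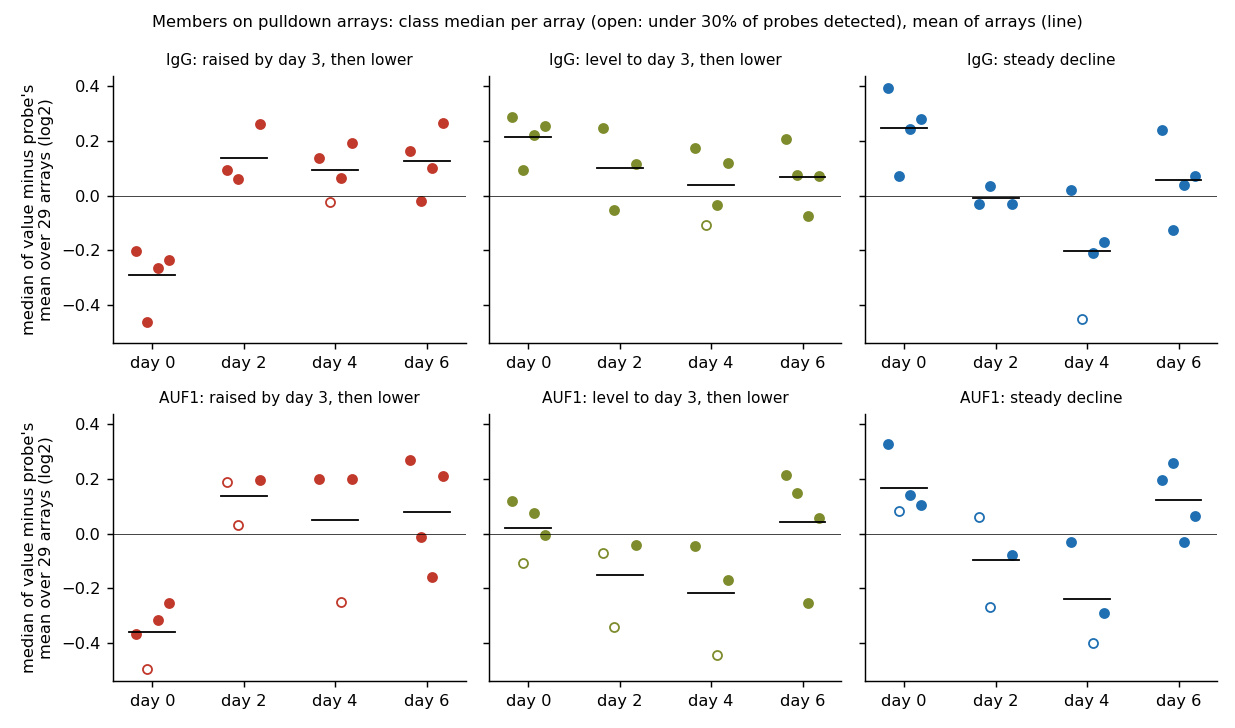
Median over the members of a class of the log2 signal minus the probe's mean over the 29 pulldown arrays, for each IgG array (top) and AUF1 array (bottom); open circles are arrays with under 30% of probes detected, and lines are the means of the arrays of a day. The raised class steps up and the steady decline class steps down after day 0, and no class has a lower line on day 6 than on day 4. The lines include the open circles, and on day 4 the open circle is the lowest array of each panel. In order of experiment number, the AUF1 raised class read 0.199, -0.249 (open) and 0.199 on day 4. It read 0.271, -0.011, -0.158 and 0.212 on day 6, so that comparison of lines depends on the open circle.

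Among the members called lower late with AUF1, ILMN_1224635 and ILMN_2806065 changed most. ILMN_1224635, of steady decline, read 10.37, 10.91, 10.39 and 9.38 on AUF1 arrays of day 0, 9.51, 9.47 and 9.45 on day 2, 9.70, 9.80 and 9.31 on day 4, and 7.50, 7.25, 8.42 and 7.55 on day 6. The day 6 arrays lay below all others, and the late change was -1.86 ± 0.27 (adjusted p = 0.000391). With IgG it was -0.79 (adjusted p = 0.421). The difference between antibodies was -1.08 (adjusted p = 0.655) in the fit without the replicate block. ILMN_2806065, a raised member detected on 0 of 5 input arrays of day 0, read 5.75, 5.14, 6.31 and 6.51 on AUF1 day 0, 7.54, 8.33 and 7.83 on day 2, 7.49, 6.93 and 7.41 on day 4, and 5.28, 5.12, 7.06 and 6.28 on day 6. It went up and came back to its day 0 mean (5.93 on both days), a late change of -1.66 ± 0.36 (adjusted p = 0.00683). Under median scaling the late changes of these probes were -0.41 and -0.25 (adjusted p = 0.554 and 0.697), and against day 4 alone that of ILMN_2806065 was -1.34 (adjusted p = 0.0936).

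ILMN_2710253, a level member with a deep fall in input, also fell late in pulldown. It read 6.58, 7.22, 7.26 and 6.70 on IgG day 0, 8.34, 7.40 and 6.66 on day 2, 7.62, 7.69, 7.26 and 7.02 on day 4, and 6.23, 6.45, 4.44 and 6.00 on day 6. Its AUF1 values were 5.92, 6.88, 6.68 and 6.73 on day 0, 8.18, 7.11 and 6.84 on day 2, 7.29, 6.74 and 7.23 on day 4, and 6.24, 5.61, 5.08 and 5.99 on day 6. With either antibody all day 6 arrays lay below all arrays of days 2 and 4. The change was -1.5 ± 0.36 with AUF1 (adjusted p = 0.0124) and -1.65 ± 0.35 with IgG (adjusted p = 0.0765), the latter not past the threshold.

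Other members rose with AUF1 while their input level fell. ILMN_1225146, of the level class, read 6.03, 6.60, 6.14 and 6.68 on AUF1 day 0, 7.08, 5.84 and 6.52 on day 2, 6.21, 4.65 and 6.35 on day 4, and 9.26, 8.38, 7.27 and 8.28 on day 6. Its late change was 2.19 ± 0.33 (adjusted p = 0.000609), with 0.17 for IgG (adjusted p = 0.973). The difference between antibodies, 2.02, had an adjusted p of 0.507 in the fit without the replicate block. ILMN_2623793, of steady decline, read 7.79, 7.73, 6.96 and 7.82 on day 0, 6.52, 7.71 and 6.79 on day 2, 6.98, 6.56 and 6.63 on day 4, and 9.22, 8.76, 8.81 and 8.90 on day 6. Day 6 stood above every earlier AUF1 array, and the change was 2.06 ± 0.28 (adjusted p = 0.000261), against 0.46 with IgG (adjusted p = 0.831).

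Among the deepest input falls, 3 rose late with AUF1. ILMN_2909150 climbed through the whole course: 7.90, 8.58, 7.74 and 7.59 on AUF1 day 0, 9.10, 8.63 and 8.74 on day 2, 9.88, 9.30 and 9.36 on day 4, and 11.19, 11.10, 10.73 and 10.78 on day 6. The late change was 1.78 ± 0.23 (adjusted p = 0.000114) with AUF1 and 0.80 ± 0.22 with IgG (adjusted p = 0.246), while the input mean fell by 0.99. That input fall lay mostly in the lower run of array numbers, from 12.53 and 12.43 on day 3 to 10.50 and 10.34 on day 6. In the higher run the days overlapped, with 11.33, 12.33 and 11.92 on day 3 and 11.68, 11.76 and 11.33 on day 6. ILMN_2714031 rose by 1.21 ± 0.37 with AUF1 (adjusted p = 0.0456) and had a change of 0.89 with IgG (adjusted p = 0.581). Its AUF1 values on day 6 were 10.05, 10.09, 8.48 and 9.82, so experiment 3 stayed at the level of day 4. ILMN_2790357 rose by 1.83 ± 0.49 with AUF1 (adjusted p = 0.0219) and had a change of 0.64 with IgG (adjusted p = 0.897). Its late AUF1 rise was measured from the same arrays of day 2 and day 4 as its early fall. The lowest of those values were on arrays of low detection, and its day 6 values overlapped those of day 0.

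**Figure D5:**
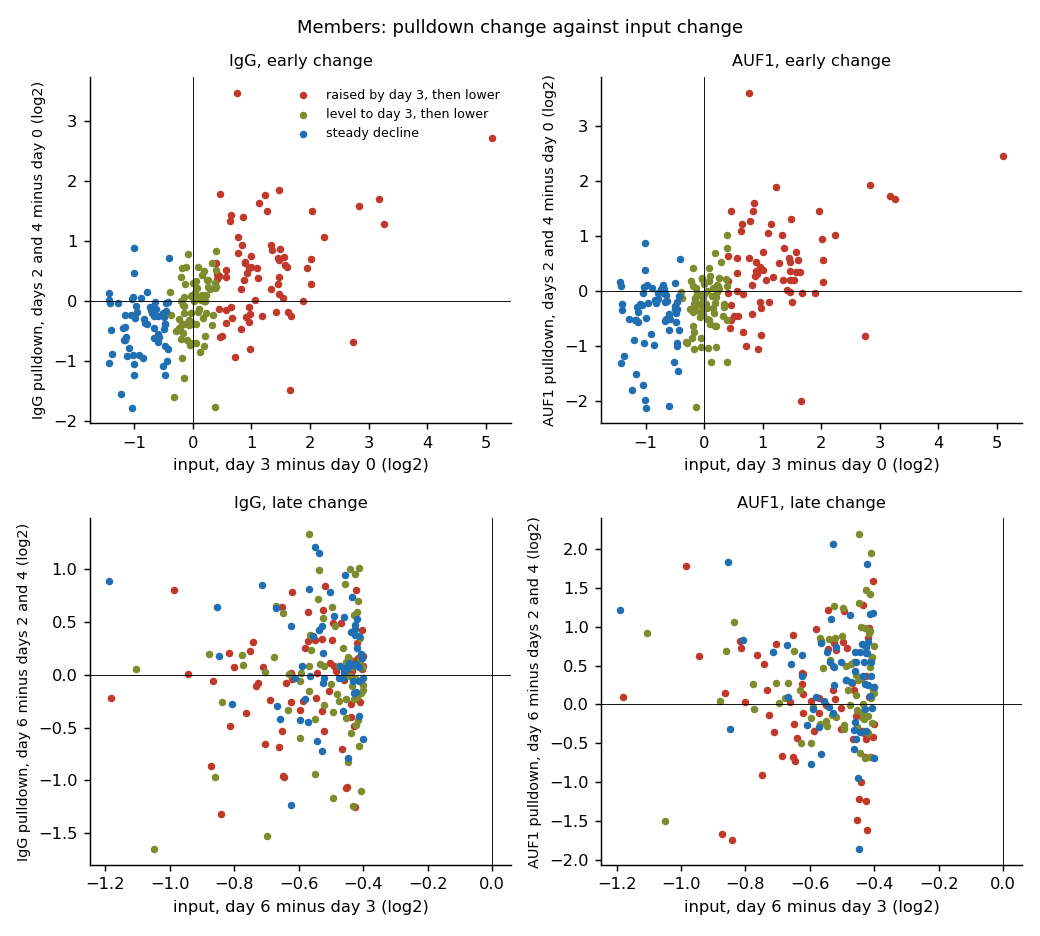
For each of the 206 members, the change in pulldown (y axis, log2; IgG left, AUF1 right) against the change in input (x axis, log2). In the upper panels the early pulldown change follows the input change from day 0 to day 3. In the lower panels the late pulldown changes lie on both sides of 0 while every input change is -0.4 or lower. Below 0 lie 91 of 206 with IgG and 76 with AUF1 (48.7% and 43.5% of tested probes).

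Across probes the early and late changes differed in how far pulldown followed input. Over the 10099 probes measured in both, the input change from day 0 to day 3 correlated with the early pulldown change at Pearson's r of 0.65 with IgG (Spearman's rho 0.54) and 0.58 with AUF1 (rho 0.46). Over the members alone the r values were 0.56 and 0.54. For the late changes the r was 0.08 with IgG (rho 0.05) and -0.07 with AUF1 (rho -0.09). These are descriptions across probes, which share arrays and are not independent replicates. Fewer probes changed by much after day 3, and the time windows of input and pulldown did not match.

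Against their own day 0 level, the raised class stayed above the other classes in pulldown to the end. With IgG the level and steady decline classes were nearly equal on day 6. With IgG the raised class stood at a median of 0.51, 0.39 and 0.37 above day 0 on days 2, 4 and 6, the level class at 0.03, -0.18 and -0.20, and the steady decline class at -0.20, -0.44 and -0.22. With AUF1 the medians were 0.43, 0.30 and 0.37 for the raised class, -0.14, -0.31 and 0.00 for the level class, and -0.27, -0.45 and -0.11 for steady decline. The 3 comparisons of an antibody share the day 0 arrays.

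Recovery with AUF1 relative to IgG, averaged over the 4 days, was lower for 39 members and higher for 19 (11.8% and 9.33% of tested probes). The median over the members was -0.10, against -0.02 over all tested probes. The raised class had 10 lower and 8 higher, the level class 18 and 6, and the steady decline class 11 and 5. Of the 39 lower members 28 were detected on all 14 AUF1 arrays, and 29 had a lower AUF1 mean on each of the 4 days. Of the 19 higher members 17 had a higher AUF1 mean on each day. Only 4 of the 58 differed by 1 log2 unit or more, all of them lower with AUF1. By day, the member medians of AUF1 minus IgG were -0.09, -0.17, -0.15 and 0.04 on days 0, 2, 4 and 6. The split depended on the scaling: under median scaling 126 were lower and 0 higher (48.1% and 1.04% of tested probes), and the median of all tested probes moved to -0.56. Without the arrays of low detection 26 were lower and 15 higher (9.52% and 8.1%), and the median was -0.02. With the experiment number as a fixed replicate block within day, 67 were lower and 40 higher (24.5% and 22.8% of tested probes).

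Of the members called, the lowest with AUF1 relative to IgG was ILMN_1248099, of the level class. It read 11.67, 11.54, 11.42 and 8.76 with IgG on day 0, 12.04, 11.35 and 10.52 on day 2, 11.10, 10.73, 11.24 and 10.25 on day 4, and 10.38, 10.72, 9.29 and 8.89 on day 6. With AUF1 it read 9.07, 9.32, 9.18 and 7.75, then 9.98, 9.01 and 8.60, then 9.35, 8.76 and 8.35, then 9.07, 8.64, 8.82 and 8.73. The antibodies did not overlap on days 2 and 4. On days 0 and 6 their ranges overlapped, but AUF1 lay below the IgG array of the same experiment number in 4 of 4 pairs on each day. On day 0 experiment 4 was low with both. The mean difference was -1.79 ± 0.28 (adjusted p = 0.000164), and its daily gap was smallest on day 6 (means of 8.81 and 9.82). ILMN_2933624, of steady decline, had a difference of -1.39 ± 0.30 (adjusted p = 0.0024). Its AUF1 values of 4.51 on day 2 and 4.55 on day 4, far under the rest, were on arrays of low detection.

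The highest called with AUF1 relative to IgG were ILMN_2909248 and ILMN_1224786, at modest size. ILMN_2909248, of steady decline, had AUF1 means of 9.47, 8.79, 8.15 and 9.14 and IgG means of 8.76, 7.75, 7.30 and 8.73 on days 0, 2, 4 and 6. It was higher with AUF1 on each day, by 0.75 ± 0.14 in the mean (adjusted p = 0.00101), and with either antibody it dipped on day 4 and stood higher on day 6. ILMN_1224786, of the raised class, had AUF1 means of 8.44, 8.87, 8.51 and 7.69 and IgG means of 7.83, 7.68, 7.47 and 7.60, a difference of 0.73 ± 0.15 (adjusted p = 0.00168). By day 6 its 2 means lay within 0.1 of each other after a late AUF1 change of -1.0 ± 0.26 (adjusted p = 0.0203). Under median scaling the differences of these 2 probes turned to -0.37 and -0.41 (adjusted p = 0.35 and 0.236).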

How the data were processed

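Each array has 2 deposited columns, an intensity described as non-normalized per the file headers and a detection p-value. GenomeStudio 1.6.0 is the software listed in the submitters' processing notes. Background subtraction: not given in the sources used here. Signals ran from 32.4 to 37011. Column names give a group, an experiment number and an array number, so columns were assigned to groups. No 2 columns held identical values (0 pairs).

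For the rule, log2 signals of the 15 input arrays were quantile-normalized. For the pulldown tests, the 29 arrays were corrected with normexp from the detection p-values (offset 16) and quantile-normalized (limma 3.58.1, neqc, in R 4.3.3). Probes detected on at least 3 arrays were fitted over 8 groups with lmFit and eBayes, with Benjamini-Hochberg adjustment over all of them. The scripts were tested on simulated data. Fits were made on probes, since no gene names could be assigned. Named were up to 2 members in each direction per comparison, those with the largest change among those called, and the 2 deepest falls per class. ILMN_2710253, ILMN_2662926, ILMN_2909150, ILMN_2714031 and ILMN_2790357 are followed into the other comparisons for that reason. Members, classes and lists were chosen with earlier results of these data known.

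Experiment numbers pair AUF1 with IgG arrays on days 0, 2 and 6, where the correlations of same-numbered arrays' deviations from their group means ran from 0.11 to 0.84, all over 0.1; on day 4 they ran from -0.09 to 0.72. Across days they ran from -0.15 to 0.73 (IgG) and from -0.10 to 0.62 (AUF1), and for input from -0.32 to 0.51. Alternatives covered background correction, scaling, filters, array weights, moderation, the replicate block, the arrays of low detection, the reference day, the limits of the rule and leaving out each array.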

Additional observations from a re-analysis of the deposited data

Results flagged for a closer look

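In 98 groups of 4 or 5 arrays, 7 had a highest or lowest array far from its neighbours by Dixon's criterion, where chance flags about 1 in 20 groups. The median over all members was -0.056 on the IgG day 0 array of experiment 2, and 0.125 on the next. ILMN_2714031 read 9.80 on input day 3 array 40, and 10.95 on the next. ILMN_2790357 read 6.90 on input day 6 array 38, and 7.40 on the next. ILMN_1248099 was low in experiment 4 on day 0 with both antibodies, at 7.75 with AUF1 (next 9.07) and 8.76 with IgG (next 11.42). ILMN_2597769 read 11.52 on the IgG day 4 array of experiment 1, and 11.08 on the next. ILMN_2623793 read 6.96 on the AUF1 day 0 array of experiment 3, and 7.73 on the next.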

How the results depend on the processing

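The count of 206 members became 444 with background correction (202 shared), 490 with a limit of -0.3 and 101 with -0.5, and ran from 198 to 299 when 1 input array was left out. Numbers of members called, as reported and then under the alternatives that moved them by over 1.5 times, were as follows; the causes were not tested, and the array weights and blocks listed also raised the calls among all tested probes. For day 6 minus day 3 in input, the contrast that chose the members and from which nothing is read, 4 became 13 with the replicate block on experiment number and 14 on consecutive arrays (added after seeing the data), and ran from 0 (without day 3 array 43) to 13 (without day 0 array 45) with 1 array left out. For the IgG late change, 0 became 70 with array weights (24 lower, 46 higher), 2 with the replicate block within day and 9 with it across days, and ran from 0 to 3 (without the day 6 array of experiment 2). For the AUF1 late change, 28 became 48 with median scaling, 63 with array weights, 67 with the replicate block across days, 15 without the arrays of low detection and 13 against day 4 alone (added after seeing the data), and ran from 17 to 30. For AUF1 minus IgG in the late change, 0 became 8 with array weights, 15 with the replicate block within day (3 lower, 12 higher; 1.05% and 1.21% of tested probes) and 1 with it across days, and stayed at 0 with each array left out. For the IgG early change, 23 became 3 with median scaling, 56 with array weights and 41 with the replicate block across days, and ran from 18 to 26. For the AUF1 early change, 29 became 4 with median scaling, 63 with array weights, 56 with the replicate block across days and 17 without the arrays of low detection, and ran from 19 (without the day 0 array of experiment 1) to 29. For AUF1 minus IgG over days, 58 became 126 with median scaling, 99 with array weights and 107 with the replicate block within day, and ran from 45 to 66. ILMN_2909248 and ILMN_1224786 turned to -0.37 and -0.41 with median scaling.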
